A study of Mus musculus with 12 samples.

Results

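The nuclear-encoded genes of the mitochondrial respiratory chain were described in 5 sorted populations of mouse CD4 T cells. A gene belonged to the set when its symbol began with Nduf (complex I), Sdh (complex II), Uqcr (complex III), Cox4 to Cox8 (complex IV) or Atp5 (complex V) and when its probe set with the highest mean reached log2 5 on at least 2 arrays. Of 94 candidate genes, 85 met the rule, among 9886 genes tested in all. They comprised 33 genes of complex I, 4 of complex II, 8 of complex III, 11 of complex IV, 17 of complex V and 12 assembly factors of complexes I and II (Ndufaf and Sdhaf genes). The rule used levels alone, although 1 member, Cox6b2, met it through Venus-low Tfh arrays only.

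All cells carried the S1pr2V/+ allele, a Venus fluorescence reporter at S1pr2, which encodes a receptor for sphingosine-1-phosphate, per the labels. Mice had received chicken gamma globulin (CGG) in complete Freund's adjuvant (CFA) under the skin, and lymph node cells were taken on day 10. Tfh, or follicular helper T cells, support B cells in the germinal centre reaction. They were gated as CD4+ CXCR5+ PD1-high CD44-high Dump- and divided by Venus signal into Venus-high cells (3 arrays) and Venus-low cells (3 arrays). The other antigen-experienced CD44-high groups were PD1-intermediate Th cells, which were CXCR5+ (2 arrays), and PD1-low Th cells, which were CXCR5-low (2 arrays). Naive CD4 T cells (2 arrays), CD44-low and CD62L-high, came from spleen, so that tissue and cell state cannot be told apart in comparisons with them. The labels do not settle whether the naive donors had been immunized. Each array held a pool of 2 to 6 mice, and 20 ng of total RNA was amplified before labelling.

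The respiratory chain passes electrons from NADH through complex I, or from succinate through complex II, to ubiquinone, complex III, cytochrome c and complex IV, which reduces oxygen. Complexes I, III and IV pump protons across the inner mitochondrial membrane, and complex V, the ATP synthase, uses the gradient to make ATP. T cells leave a resting state, in which oxidative metabolism predominates, with a build-up of both glycolysis and mitochondria, and most chain subunits are encoded in the nucleus and imported. The mitochondrially encoded subunits were not analysed here.

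Promoters are shown for members on which the differences between Venus-high Tfh and naive cells turn, 3 complex I genes that were higher and 2 genes that were lower. The sequences are the 250 bases before the start of each gene, 5′ to 3′ on the gene's strand, from RefSeq (GRCm38.p6): Ndufs8 at chr19:3912775-3913024 (minus strand), Ndufa1 at chrX:37191239-37191488 (minus strand), Ndufb7 at chr8:83566508-83566757 (plus strand), Cox7a2l at chr17:83514334-83514583 (minus strand) and Ndufaf4 at chr4:24897833-24898082 (plus strand). Capitals mark the core sequence of ETS factors in Ndufb7, which begins 20 bases before the start, and that of nuclear respiratory factor 1 (NRF1) in Ndufaf4, which begins 113 bases before it.
Ndufs8: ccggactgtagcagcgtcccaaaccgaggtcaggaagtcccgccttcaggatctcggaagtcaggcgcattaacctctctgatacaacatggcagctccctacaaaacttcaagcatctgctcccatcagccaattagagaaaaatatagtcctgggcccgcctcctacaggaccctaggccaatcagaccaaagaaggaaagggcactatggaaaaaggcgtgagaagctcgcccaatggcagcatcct
Ndufa1: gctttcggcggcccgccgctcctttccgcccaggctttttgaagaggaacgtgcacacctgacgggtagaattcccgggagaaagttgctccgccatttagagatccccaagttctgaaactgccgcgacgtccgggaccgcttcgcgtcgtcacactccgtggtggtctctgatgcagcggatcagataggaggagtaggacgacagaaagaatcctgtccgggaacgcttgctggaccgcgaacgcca
Ndufb7: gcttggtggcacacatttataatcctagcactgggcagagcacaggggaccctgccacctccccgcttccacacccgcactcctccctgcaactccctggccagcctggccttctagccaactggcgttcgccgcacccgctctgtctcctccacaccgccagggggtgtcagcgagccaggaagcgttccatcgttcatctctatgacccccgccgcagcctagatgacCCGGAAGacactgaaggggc
Cox7a2l: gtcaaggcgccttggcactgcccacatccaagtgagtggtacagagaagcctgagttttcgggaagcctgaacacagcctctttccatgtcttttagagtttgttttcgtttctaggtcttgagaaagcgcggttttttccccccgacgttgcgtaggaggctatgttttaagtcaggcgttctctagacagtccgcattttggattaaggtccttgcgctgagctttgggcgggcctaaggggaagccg
Ndufaf4: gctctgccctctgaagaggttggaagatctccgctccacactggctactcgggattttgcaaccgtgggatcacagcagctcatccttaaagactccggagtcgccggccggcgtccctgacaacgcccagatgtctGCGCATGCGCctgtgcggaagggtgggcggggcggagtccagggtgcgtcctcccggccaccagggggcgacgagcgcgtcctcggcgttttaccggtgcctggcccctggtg

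Promoter windows of 300 bases, 250 before to 50 after the start, were found for 73 of the 85 members. Both strands were searched for core sequences of factors known from respiratory chain promoters. The NRF1 palindrome GCGCATGCGC was present in 6 members (8.22%), namely Atp5g2, Atp5k, Cox6a1, Ndufaf4, Ndufaf5 and Uqcrc1, against 2.66% of the 8081 tested genes with a window and 1.07% of all 27025 genes with one. Its shorter part GCGCATGC, which every palindrome match also contains, was present in 15.1% of members and 6.61% of tested genes. The ETS core CCGGAAG was present in 22 members (30.1%) and 22.5% of tested genes, and the YY1 core AAGATGGCG in 7 members (9.59%) and 4.06% of tested genes. The E box CACGTG was present in 8.22% of members and 12.2% of tested genes. The median GC content of the 250 bases before the start was 57.6% for 78 promoters of members. It was 52.4% for all 32851 promoters, which are not limited to tested genes. These matches describe letters in the windows, and their part in any difference below was not tested. Ndufb9, the member with the smallest adjusted p between Venus-high Tfh and naive cells in the limma fit of group alone, had no window.

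Values are deposited log2 signals, on which 1 unit is a doubling, and differences are first group minus second with the SE. By their overall distribution the 12 arrays fell into 3 array sets, which the labels do not name. Set 1 held Venus-high 1, Venus-low 1 and naive 1. Set 2 held Venus-high 2, Venus-low 2, PD1-low 1 and naive 2. Set 3 held Venus-high 3, Venus-low 3, both PD1-intermediate arrays and PD1-low 2. The upper quartile of the probe sets was 8.50 to 8.55, 8.68 to 8.76 and 9.39 to 9.42 in sets 1, 2 and 3, so limma was fitted with group alone and with the array set as a term added. Counts over all 85 members are given from both fits, and values of single genes from the fit named beside them. Some probe sets lay more than 3 log2 units away in 1 set (3315 in set 2), and none of these stood for a member. All 7 T cell markers passed the filter, with Cd3d at 14.78 to 15.20, Cd4 at 13.04 to 14.38 and Cd28 at 11.50 to 13.49 over the 12 arrays. Their summed level was 16.91 to 17.13 in Venus-high, 16.97 to 17.16 in Venus-low, 17.22 to 17.25 in PD1-intermediate, 16.91 to 17.16 in PD1-low and 16.89 on both arrays of naive cells. Thy1 read 13.41, 13.13 and 12.70 in Venus-high Tfh, below all other arrays (14.18 to 14.62). S1pr2 stood at 12.58 to 13.09 in Venus-high and 9.86 to 10.68 in Venus-low Tfh. None of 8 myeloid markers reached log2 5 on 2 arrays, and of the B cell genes Cd79a read at most 2.55 and Ms4a1 at most 3.44. Cd79b reached 8.99 in PD1-low cells, and the summed B cell level was 4.96 to 6.30 in Venus-high, 4.96 to 7.15 in Venus-low, 6.94 to 7.03 in PD1-intermediate, 7.02 to 9.05 in PD1-low and 4.97 to 6.29 in naive cells, with 2 of 6 markers past the filter. Of 5 CD8 T and NK cell markers 3 passed the filter, while Cd8a read at most 2.80 and Ncr1 at most 2.18. Their summed level was 4.74 to 10.17 in Venus-high, 6.98 to 10.28 in Venus-low, 10.57 to 11.16 in PD1-intermediate, 6.64 to 10.44 in PD1-low and 5.75 to 8.35 in naive cells. Gzmb read 10.05 and 8.13 in PD1-intermediate cells and 2.05 to 2.11 in Venus-high Tfh, Cd8b1 was highest in PD1-low cells (6.35 and 6.62), and Prf1 read 2.13 to 2.14 on the set 2 arrays and 8.25 to 10.24 on all others. The part of such cells in the results was not tested. Because the samples are bulk RNA, fewer cells of a type and less RNA per cell cannot be told apart.

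The chain was expressed in every group. Of the members, 83 stood at log2 5 or above on all 12 arrays. The exceptions were Sdhaf3, which reached this level on 9 arrays, and Cox6b2, which did so on 2 Venus-low Tfh arrays alone. The 9 candidates that did not meet the rule were mostly isoforms known from other tissues. Cox4i2, Cox6a2, Cox7b2, Cox8b, Cox8c and Ndufa4l2 read at most 2.33 on any array, Ndufb1 and Ndufb4 at most 2.70, and Cox7a1, the heart and muscle isoform of Cox7a, at most 4.83. Their counterparts Cox4i1, Cox6a1, Cox7a2 and Cox8a were all measured well above the limit, Cox4i1 at 13.49 to 14.01 and Cox8a at 11.06 to 12.66.

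Venus-low Tfh cells had the highest levels of most respiratory chain genes, within each array set. In set 1, 52 of 85 members were highest in the Venus-low array among 3 groups, where 22.8% of all tested genes were. In set 2, 52 members were highest in the Venus-low array among 4 groups, against 24.2% of all genes. In set 3, 57 members were highest in the Venus-low array, against 25.6% of all genes. These counts are descriptions of single arrays, with no test. In each set they include Cox6b2, which met the filter through Venus-low arrays alone.

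**Figure D1:**
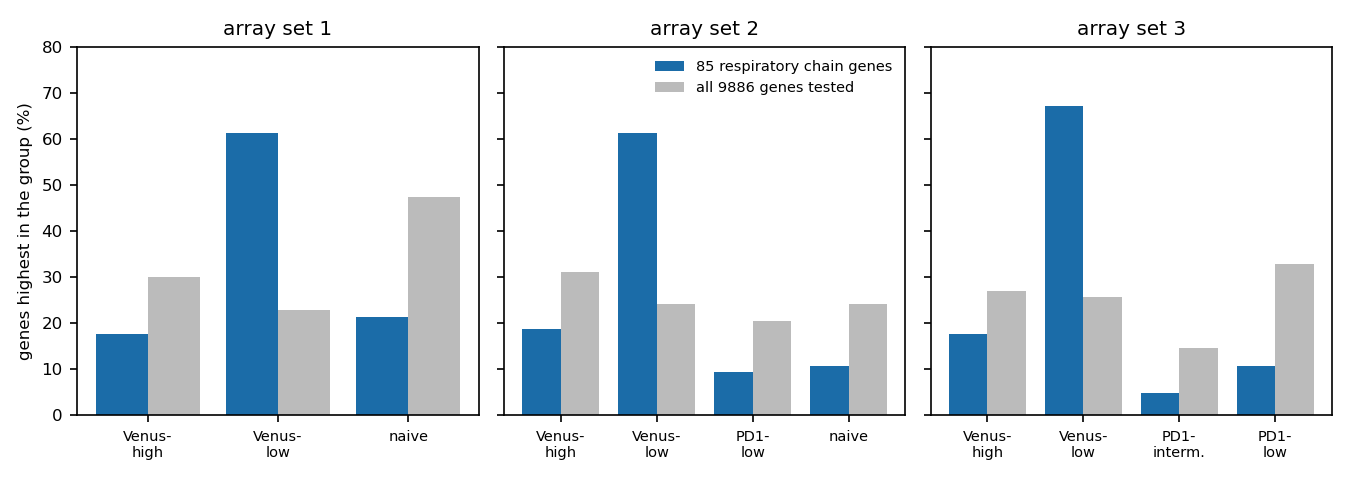
Share of genes (%, vertical axis) whose highest level lay in each group, for each of the 3 array sets, among the 85 respiratory chain genes (blue) and all 9886 tested genes (grey). PD1-intermediate cells enter as the mean of 2 arrays and every other group as 1 array, and the Venus-low bar of the respiratory chain genes stands at 61.2%, 61.2% and 67.1%.

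The lowest group was naive cells where a set held them. Naive cells were lowest for 51 members in set 1 and 46 in set 2, against 31.6% and 27.7% of all genes. In set 3, which held no naive array, PD1-low cells were lowest for 42 members, against 36.8% of all genes. In complex V, Venus-low Tfh were highest for 12, 15 and 13 of the 17 genes in sets 1, 2 and 3. In complex III they were highest for 6, 5 and 6 of 8 genes. In complex IV they were highest for 7, 9 and 7 of 11 genes. The counts were 19, 16 and 22 of 33 genes in complex I and 2, 3 and 3 of 4 in complex II. Among the 12 assembly factors they were 6, 4 and 6. In set 2, Venus-high Tfh were highest for 10 complex I genes and 4 assembly factors.

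**Figure D2:**
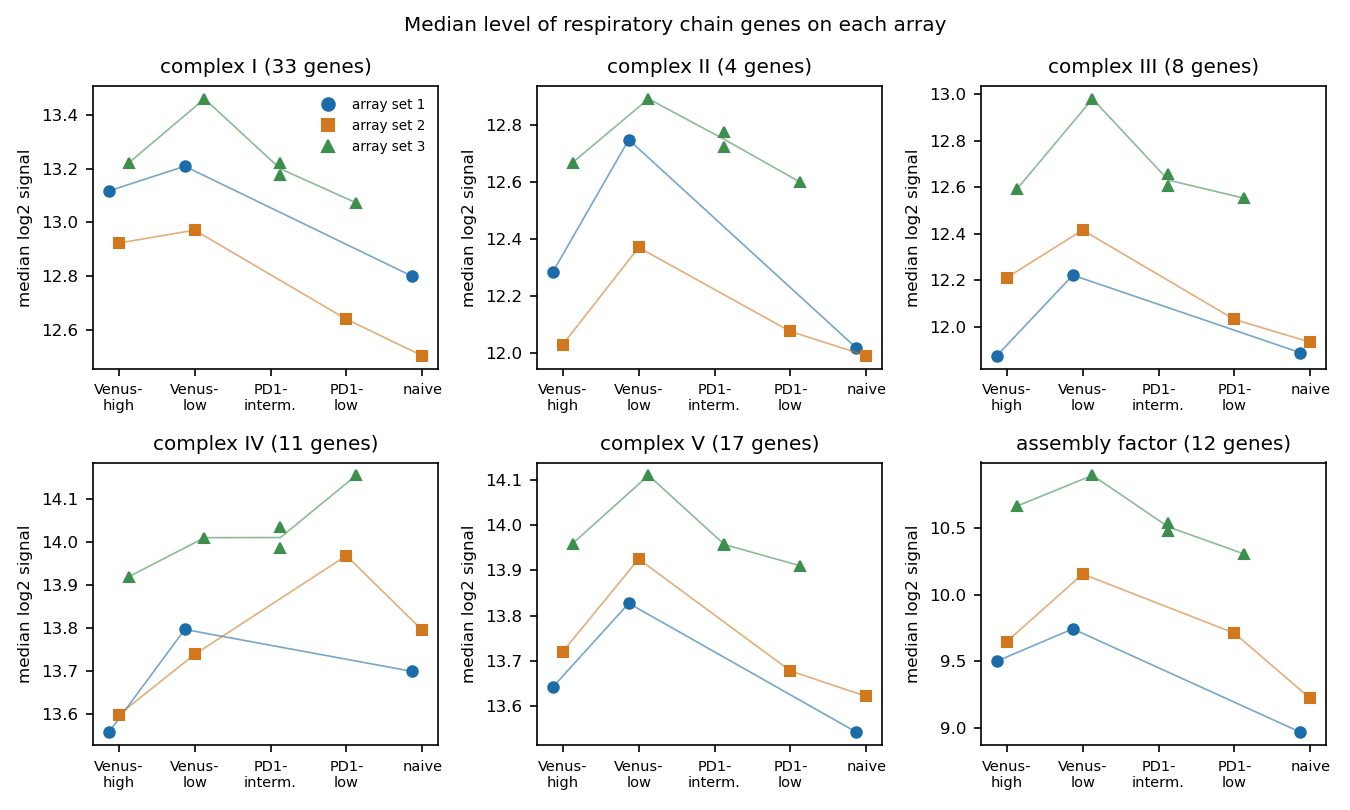
Median log2 signal (vertical axis) over the genes of each complex on each of the 12 arrays, by sorted group (horizontal axis), with marker and colour giving the array set and lines joining arrays of 1 set. In complexes I, II, III and V and the assembly factors the Venus-low array is the highest of its set. In complex IV the PD1-low arrays of sets 2 and 3 have the highest median, while most of its genes are highest in Venus-low Tfh.

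The Venus-low array had the highest median of its set in 5 of the 6 classes. In complex IV the PD1-low arrays of sets 2 and 3 had it. PD1-low cells were highest there for 1 and 2 of the 11 genes, and Venus-low Tfh for 9 and 7. For complex I the median level was 13.12, 12.92 and 13.22 on the Venus-high arrays, 13.21, 12.97 and 13.46 on the Venus-low arrays, 13.22 and 13.18 on the PD1-intermediate arrays, 12.64 and 13.07 on the PD1-low arrays and 12.80 and 12.51 on the naive arrays. For complex V it was 13.64, 13.72 and 13.96 in Venus-high, 13.83, 13.93 and 14.11 in Venus-low, 13.96 and 13.96 in PD1-intermediate, 13.68 and 13.91 in PD1-low and 13.54 and 13.62 in naive cells. Across sets the groups overlapped, and the set 3 array read highest in each group that had one.

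Venus-high and Venus-low Tfh were compared for what goes with strong S1pr2 reporter signal. Most chain genes lay slightly lower in Venus-high cells, and few differences passed the test. The median difference of the 85 members was -0.12, against 0.02 for all genes, and 67 members lay below 0. The gap between these medians, -0.14, varied when single arrays were left out of the fit without the array set term. It was -0.065 without Venus-high 3, -0.089 without Venus-low 1 and -0.21 without Venus-low 3. Each of these settings also breaks a pair of Tfh arrays from 1 set. In limma without the array set term 0 members passed, with 1 at an unadjusted p under 0.05, against 1.31% of all tested genes called. With the term, 7 members fell and 0 rose (8.24%), against 16.9% of all genes called and 9.43% called lower. Cox6b2, which met the filter through Venus-low arrays alone, is among the 7 and among the members counted as lower here. The share of members that fell was close to the share of all genes called lower. Venus-high cells lay below Venus-low cells in all 3 sets for 46 members (54.1%), against 27.6% of all genes, and above in all 3 sets for 5 members, against 27.3%. The median difference was -0.14, -0.14 and -0.10 within sets 1, 2 and 3.

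**Figure D3:**
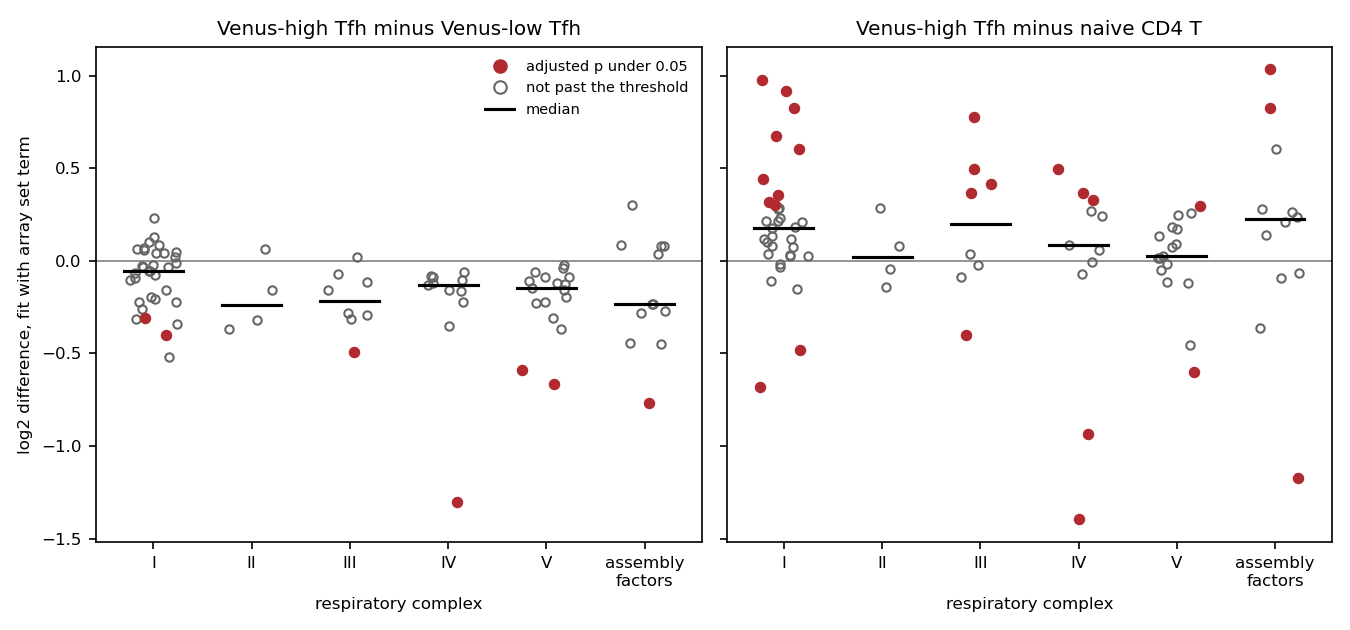
Log2 difference of each of the 85 genes (points) by complex, for Venus-high minus Venus-low Tfh (left) and Venus-high Tfh minus naive cells (right), from the limma fit with the array set term, with medians as black bars. Filled red points passed an adjusted p of 0.05, 7 on the left, all below 0, and 26 on the right, 19 above and 7 below 0.

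In complex I, 22 of 33 genes lay below 0 and the median was -0.05. With the array set term 2 complex I genes fell. Ndufa8, an accessory subunit of the intermembrane side, read 10.80, 11.46 and 12.52 in Venus-high and 11.12, 11.995 and 12.87 in Venus-low Tfh. The groups overlapped across sets, and within each set Venus-high was lower (-0.40 ± 0.09, adjusted p = 0.0228 with the term). Without the term the adjusted p was 1, and the difference was 0.036 when Venus-low 3 was left out. Ndufab1, the mitochondrial acyl carrier protein, differed by -0.31 ± 0.08 (adjusted p = 0.0484 with the term). The core subunits Ndufs1, which takes part in electron transfer, and Ndufv1, which binds NADH, were not called. Ndufv1 read 13.41, 13.16 and 12.98 in Venus-high and 13.32, 12.67 and 13.18 in Venus-low Tfh, and was higher in Venus-high in sets 1 and 2 and lower in set 3. Ndufa4, counted with complex I by its symbol but since assigned to complex IV, had the lowest difference of the 33. It read 9.003, 9.88 and 11.34 in Venus-high and 9.24, 10.81 and 11.74 in Venus-low Tfh (-0.52 ± 0.17, adjusted p = 0.0799 with the term).

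In complex II, succinate dehydrogenase, 3 of 4 genes lay below 0 and 0 passed with or without the term. Sdhb, the iron-sulfur subunit, read 12.56, 12.37 and 12.67 in Venus-high and 13.06, 12.52 and 12.98 in Venus-low Tfh (-0.32 ± 0.09, adjusted p = 0.0610 with the term). Venus-high was lower in each pair, and the call was made only with the array set as a random block (adjusted p = 0.0432, with a range up to 1 over the other settings). Sdhd, a membrane anchor, differed by -0.37 ± 0.14 (adjusted p = 0.113 with the term). Sdha, the flavoprotein with the active site, was the member of complex II above 0.

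In complex III, 7 of 8 genes lay below 0 and 1 fell with the term. Uqcrfs1, the Rieske iron-sulfur protein, read 11.18, 11.35 and 11.99 in Venus-high and 11.52, 11.92 and 12.56 in Venus-low Tfh. Venus-high was lower in all 3 pairs, by 0.33, 0.57 and 0.57 in sets 1, 2 and 3, though the groups overlapped across sets. The difference was -0.49 ± 0.32 (adjusted p = 0.875) without the term and -0.49 ± 0.09 (adjusted p = 0.0140) with it. Uqcrq, a small subunit, differed by -0.29 ± 0.08 (adjusted p = 0.0590 with the term).

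In complex IV, cytochrome c oxidase, all 11 genes lay below 0, with a median of -0.13. The gene called with the term was Cox6b2, an isoform of Cox6b known from testis. It read 3.46, 4.18 and 4.52 in Venus-high Tfh, 4.52, 5.16 and 6.38 in Venus-low Tfh, 4.51 and 3.34 in PD1-intermediate, 4.03 and 4.52 in PD1-low and 3.09 and 3.78 in naive cells. It passed log2 5 on Venus-low arrays 2 and 3 alone, which is also what brought it past the filter. Its calls and its place among the genes below 0 therefore add no support to the set. Its difference was -1.30 ± 0.31 with the term (adjusted p = 0.0321). The 6 Tfh arrays alone, with the pair as a block, called Cox6b2 and no other member (adjusted p = 0.0457, within a range of 0.0155 to 0.847 over all settings). Among the common subunits, Cox5a, on the matrix side of the enzyme, read 12.97, 12.92 and 13.66 in Venus-high and 13.51, 13.24 and 13.86 in Venus-low Tfh (-0.35 ± 0.11, adjusted p = 0.0736 with the term).

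In complex V all 17 genes lay below 0, with a median of -0.15, and 2 fell with the term. Both encode subunit c, which forms the rotating ring and is made as the same mature protein from 3 genes. Atp5g1 read 11.26, 12.39 and 12.92 in Venus-high and 12.02, 12.99 and 13.33 in Venus-low Tfh. It fell by 0.59 ± 0.09 with the term (adjusted p = 0.00889) and was lower in Venus-high in each set. Atp5g2 read 9.92, 12.56 and 13.16 in Venus-high and 10.95, 13.21 and 13.48 in Venus-low Tfh (-0.67 ± 0.16, adjusted p = 0.0337 with the term). Venus-high was lower in each set. Without the term the adjusted p was 1, and the difference turned to 0.31 when Venus-high 1 was left out. That setting keeps Venus-low 1 without its pair. Its levels differed more between array sets within each group than between the groups. The third gene, Atp5g3, read 14.00, 14.43 and 14.74 in Venus-high and 14.18, 14.51 and 14.84 in Venus-low Tfh and was not called. Atp5a1 and the catalytic subunit Atp5b were not called either, with Atp5b at -0.16 ± 0.07 (adjusted p = 0.187 with the term).

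Among the assembly factors, 7 of 12 lay below 0 and 1 fell with the term. Ndufaf2, which acts late in the building of complex I, read 8.46, 9.29 and 10.79 in Venus-high and 9.58, 10.17 and 11.10 in Venus-low Tfh (-0.77 ± 0.18, adjusted p = 0.0296 with the term). Venus-high was lower in each pair. The 7 calls with the term depended on single arrays. They numbered 3 without Venus-high 1, 2 without Venus-high 2, 3 without Venus-high 3, 3 without Venus-low 1, 1 without Venus-low 2 and 3 without Venus-low 3. Without Venus-high 3 and without Venus-low 1, 1 of these was a rise.

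**Figure D4:**
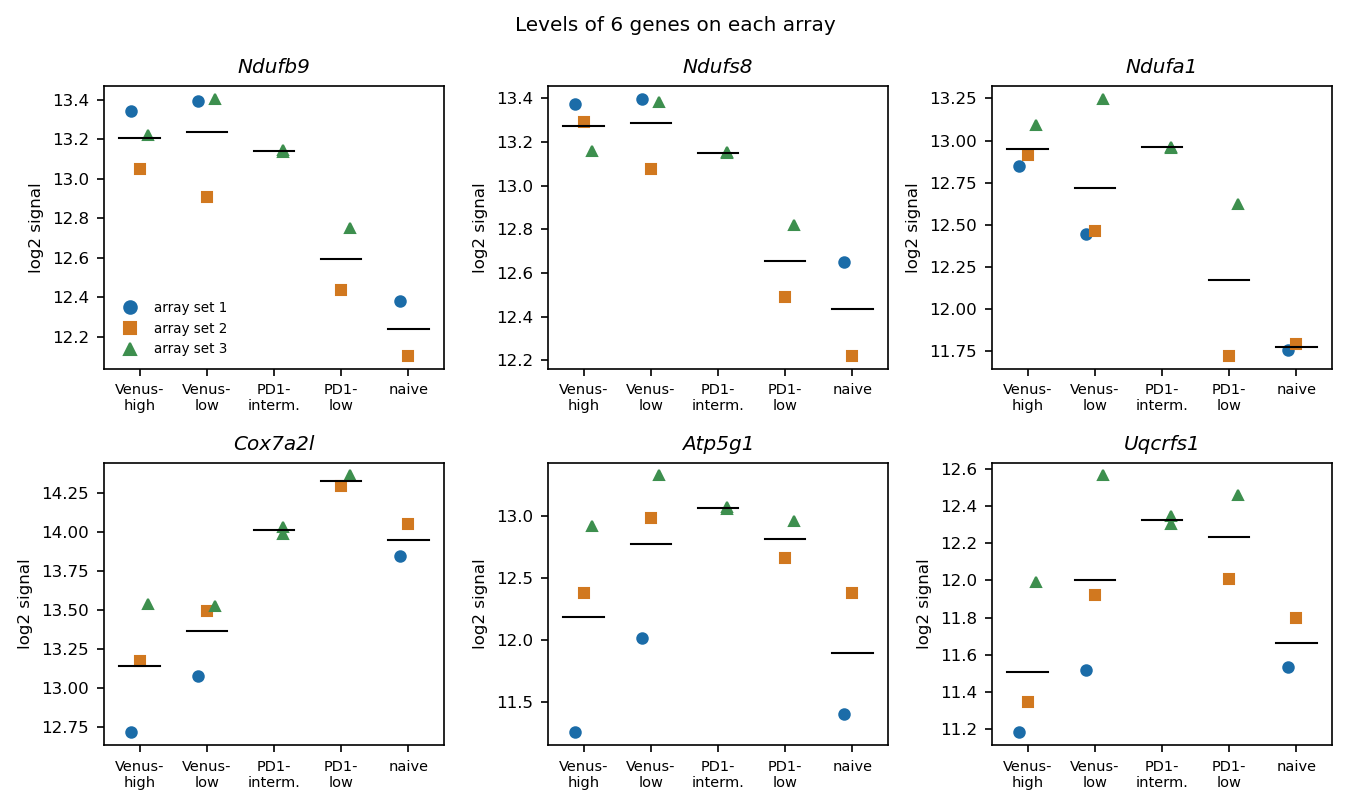
Log2 signal (vertical axis) of 6 genes on each of the 12 arrays by sorted group, with marker and colour giving the array set and the black bar the group mean. Ndufb9, Ndufs8 and Ndufa1 stand higher on all 6 Tfh arrays than on both naive arrays, Cox7a2l stands lower on all 6 Tfh arrays than on all other arrays, and Atp5g1 and Uqcrfs1 are lower in Venus-high than in Venus-low Tfh within each set.

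Venus-high Tfh were compared with naive cells to describe the chain at the far ends of the sorted populations. In complexes I and III most of the called genes were higher in Tfh cells, and complexes II and V had 0 and 2 calls. In limma without the array set term 4 members rose and 0 fell (4.71%), against 13.7% of all tested genes called. With the term 19 rose and 7 fell (30.6%), against 41.1% of all genes called, 20.2% higher and 20.9% lower. The share of members called was below that of all genes in either fit, a difference that was not tested. Their median difference was 0.29 without the term and 0.12 with it, against 0.18 and -0.02 for all genes. The gap without the term, 0.11, was 0.043 when Venus-high 1 was left out. Venus-high cells lay above naive cells in both sets that held them for 44 members (51.8%), against 33.2% of all genes, and below in both for 17, against 38.9%.

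The 4 members that rose without the term all belong to complex I. Ndufb9, an accessory subunit of the membrane arm, read 13.34, 13.05 and 13.22 in Venus-high Tfh, 13.39, 12.91 and 13.41 in Venus-low Tfh, 13.14 and 13.14 in PD1-intermediate, 12.44 and 12.75 in PD1-low and 12.38 and 12.10 in naive cells. The Tfh and PD1-intermediate arrays did not overlap with the PD1-low and naive arrays. Ndufb9 was higher in Venus-high than in naive cells by 0.96 ± 0.24, or 1.95-fold (adjusted p = 0.0267), and by 0.92 ± 0.10 with the term (adjusted p = 5.3e-04). A second probe set gave 0.74.

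Ndufs8, a core subunit that carries iron-sulfur clusters, read 13.37, 13.29 and 13.16 in Venus-high Tfh, 13.40, 13.08 and 13.38 in Venus-low Tfh, 13.15 and 13.15 in PD1-intermediate, 12.49 and 12.82 in PD1-low and 12.65 and 12.22 in naive cells. Its levels divided the arrays in the same way, with no overlap. It rose by 0.84 ± 0.22 (adjusted p = 0.0389) and by 0.83 ± 0.13 with the term (adjusted p = 0.00244), and 4 further bright probe sets gave 0.88 to 1.09 with the term, while a dim one gave 0.00.

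Ndufa1, a small membrane subunit encoded on the X chromosome, read 12.85, 12.92 and 13.09 in Venus-high Tfh, 12.45, 12.46 and 13.25 in Venus-low Tfh, 12.96 and 12.96 in PD1-intermediate, 11.72 and 12.62 in PD1-low and 11.76 and 11.79 in naive cells. PD1-low array 1 lay beside the naive arrays, and PD1-low array 2 lay within the Venus-low range. Ndufa1 rose by 1.18 ± 0.33, or 2.26-fold (adjusted p = 0.0482), and by 0.98 ± 0.17 with the term (adjusted p = 0.00375).

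Ndufb7, an accessory subunit facing the intermembrane space, read 14.51, 14.51 and 14.47 in Venus-high Tfh, 14.52, 14.50 and 14.56 in Venus-low Tfh, 14.46 and 14.45 in PD1-intermediate, 14.11 and 14.36 in PD1-low and 13.87 and 13.88 in naive cells. Naive arrays lay lowest, PD1-low arrays above them and all Tfh and PD1-intermediate arrays highest, with no overlap. Ndufb7 rose by 0.62 ± 0.18 (adjusted p = 0.0498) and by 0.60 ± 0.10 with the term (adjusted p = 0.00299).

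These 4 calls without the term were lost when single arrays were left out, and all 4 held with the array set as a term or as a random block. Without Venus-high 1, Venus-high 2, naive 1 or naive 2, 0 members were called. Without Venus-high 3 the 1 member called was a fall, that of Cox7a2l (adjusted p = 0.046). With the replicate number as a block, which in these groups marks the same pairs as the array set, 5 members rose and 3 fell. With the array set term the count stayed between 18 and 22 when any 1 of these arrays was left out. When each array was centred on its median, the median of all genes was set to 0, and Ndufa1 kept its call (adjusted p = 0.0127) while Ndufb9, Ndufs8 and Ndufb7 lost theirs (adjusted p = 0.205, 0.355 and 0.592). Over all settings tried, the adjusted p ran from 1.05e-04 to 0.47 for Ndufb9, from 6.09e-04 to 0.355 for Ndufs8, from 0.00122 to 0.198 for Ndufa1, from 8.51e-04 to 0.592 for Ndufb7 and from 3.48e-04 to 0.38 for Cox7a2l.

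With the array set term, 9 complex I genes rose and 2 fell among 33. Besides the 4 above, Ndufb8, a membrane arm subunit, rose by 0.68 ± 0.10 (adjusted p = 0.0017), and Ndufs4, a subunit of the peripheral arm, by 0.44 ± 0.09 (adjusted p = 0.0057). A second, dimmer probe set of Ndufb8 gave -0.12. The other probe sets of Ndufs4, all dimmer, gave 0.45, -0.27 and -0.93. Ndufa13, Ndufc1 and Ndufa2 rose by 0.30 to 0.35. The 2 that fell were Ndufa6 (-0.68 ± 0.14) and Ndufa10 (-0.48 ± 0.11), both accessory subunits. Ndufa6 read 10.69, 10.46 and 10.88 in Venus-high Tfh and 11.52 and 10.94 in naive cells, with no overlap.

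Complex II had 0 calls. In complex III 4 genes rose with the term and 1 fell. Uqcr11 (0.78 ± 0.16) and Uqcr10 (0.42 ± 0.12), small subunits, Uqcrc1 (0.50 ± 0.10), a core protein, and Uqcrq (0.36 ± 0.10) rose, while Uqcrfs1 fell by 0.40 ± 0.11. Dimmer probe sets gave -0.04 and 0.28 for Uqcr10 and -0.55 for Uqcrq. Uqcrc1 read 11.30, 11.78 and 11.84 in Venus-high Tfh and 10.90 and 11.15 in naive cells, without overlap. Uqcr11 read 9.63, 10.89 and 11.32 in Venus-high Tfh and 8.56 and 10.47 in naive cells, which overlapped across sets.

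In complex IV 3 genes rose with the term and 2 fell, and the falls were larger than the rises. Cox8a (0.50 ± 0.10), Cox6c (0.37 ± 0.10) and Cox6b1 (0.33 ± 0.09) rose. Dimmer probe sets of Cox8a gave 0.56 and -1.19. Cox7a2l, also named SCAF1, is known to join complexes III and IV into supercomplexes. It read 12.72, 13.18 and 13.54 in Venus-high Tfh, 13.08, 13.50 and 13.53 in Venus-low Tfh, 13.99 and 14.03 in PD1-intermediate, 14.29 and 14.36 in PD1-low and 13.85 and 14.06 in naive cells. All 6 Tfh arrays lay below all 6 other arrays. The difference between Venus-high and naive cells was -0.81 ± 0.27 without the term (adjusted p = 0.0974) and -0.93 ± 0.13 with it (adjusted p = 0.00117), and the other 2 probe sets gave -0.90 and -0.94. Between Venus-low Tfh and PD1-intermediate cells Cox7a2l differed by -0.64 ± 0.27 (adjusted p = 0.468) and by -0.40 ± 0.14 with the term (adjusted p = 0.143).

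Cox7c, a small subunit, read 8.36, 9.01 and 9.88 in Venus-high Tfh and 10.54 and 9.74 in naive cells. It fell by 1.39 ± 0.34 with the term (adjusted p = 0.016), by 2.18 in set 1 and by 0.73 in set 2, and the groups overlapped across sets. The nuclear-encoded subunits Cox4i1, Cox5a and Cox5b were not called, and Cox5b differed by 0.24 ± 0.12 (adjusted p = 0.154 with the term).

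In complex V 1 gene rose with the term and 1 fell among 17, and the median was 0.03. Atp5j, a subunit of the stalk, rose by 0.30 ± 0.09 (adjusted p = 0.030). Atp5l, a membrane subunit, fell by 0.60 ± 0.14 with the term (adjusted p = 0.0121) and differed by -0.12 ± 0.76 without it (adjusted p = 0.957). It read 9.51, 11.07 and 11.78 in Venus-high Tfh and 10.41 and 11.41 in naive cells, so that its spread over array sets exceeded the difference, and its direction turned under 3 other settings.

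Among the assembly factors Ndufaf3 (1.03 ± 0.12) and Sdhaf1 (0.83 ± 0.19) rose with the term and Ndufaf4 fell. Ndufaf3 and Ndufaf4 are partners in the early building of complex I, and Sdhaf1 helps insert iron-sulfur clusters into complex II. Ndufaf3 read 10.23, 10.59 and 11.11 in Venus-high Tfh, 9.95, 10.72 and 11.00 in Venus-low Tfh, 10.94 and 10.93 in PD1-intermediate, 10.16 and 10.62 in PD1-low and 8.96 and 9.79 in naive cells, so both naive arrays lay below all others. Ndufaf4 read 10.43, 9.99 and 11.41 in Venus-high Tfh, 10.78, 10.43 and 11.31 in Venus-low Tfh, 11.68 and 11.67 in PD1-intermediate, 11.19 and 11.83 in PD1-low and 11.60 and 11.41 in naive cells. Venus-high array 3 was level with naive array 2, and the other Venus-high arrays were lower. Ndufaf4 fell by 1.17 ± 0.17 with the term (adjusted p = 0.00166), and its second probe set gave -0.63.

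Venus-low Tfh and PD1-intermediate cells share CXCR5 and differ in the gate for PD1. Without the term 0 members passed, with 2 at an unadjusted p under 0.05, against 0.566% of all genes. With the term 1 member rose, Cox6b2 (2.13 ± 0.40, adjusted p = 0.0332), against 6.41% of all genes. Cox6b2 met the filter through Venus-low arrays alone, so this call adds no support to the set. The median member difference was 0.15 with the term, against -0.01 for all genes, and 72 of 85 lay above 0. Without the term the median was -0.18, against -0.40 for all genes, and both PD1-intermediate arrays belong to set 3. With the replicate number as a block 12 members were called lower, but the numbers of the PD1-intermediate arrays do not follow the array sets. Within set 3 this comparison rests on 1 Venus-low array.

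PD1-intermediate cells were compared with PD1-low cells, which differ in the gates for CXCR5 and PD1. In limma 0 members passed without the term (0 at an unadjusted p under 0.05) and 0 with it (12 at an unadjusted p under 0.05), against 4.01% and 12.8% of all genes. The smallest adjusted p with the term was that of Ndufb9 (0.39 ± 0.12, adjusted p = 0.0802). The member median was 0.06 with the term, against -0.00 for all genes. Ndufs8 differed by 0.40 ± 0.15 (adjusted p = 0.142) and Ndufa1 by 0.48 ± 0.19 (adjusted p = 0.175), both with the term.

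PD1-low cells were compared with naive cells. In limma 0 members passed without the term (1 at an unadjusted p under 0.05) and 0 with it (8 at an unadjusted p under 0.05), against 0.0809% and 0.566% of all genes. Ndufaf3 differed by 0.50 ± 0.14 (adjusted p = 0.211 with the term) and Ndufb9 by 0.37 ± 0.12 (adjusted p = 0.248 with the term). The member median was 0.06 with the term, against -0.04 for all genes.

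A further list of 22 measured genes held mobile carriers, enzymes that feed the chain or make ubiquinone, and genes of exchange across the mitochondrial membranes. The last were the Slc25a and Vdac genes. Atpif1, Sod2, Prdx3 and Cyc1 were also counted in this list. Gpd2, the mitochondrial glycerol-3-phosphate dehydrogenase, which passes electrons to ubiquinone, fell in Venus-high against Venus-low Tfh by 2.03 ± 0.38 without the term (adjusted p = 0.0445) and was the only gene of this list called there. Of all genes, 1.31% were called without the term. With the term 5 of the 22 fell and 1 rose, against 16.9% of all genes called and 9.43% called lower. Among them Coq7, an enzyme of ubiquinone synthesis, differed by -1.06 ± 0.18 (adjusted p = 0.0099) and Cycs, cytochrome c, by -0.64 ± 0.17 (adjusted p = 0.0454). The gene that rose was Coq9, also of ubiquinone synthesis (0.49 ± 0.13, adjusted p = 0.0451). Against naive cells 4 of the 22 rose and 5 fell with the term, against 41.1% of all genes called. Among these were Etfb, a flavoprotein of fatty acid oxidation, at 1.38 ± 0.13 and Dhodh, of pyrimidine synthesis, at -1.59 ± 0.17.

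Of 30 measured assembly factors outside the Ndufaf and Sdhaf families, 0 were called between the Tfh groups in either fit. The shares of all genes called were 1.31% without the term and 16.9% with it. Against naive cells 2 rose and 1 fell without the term, and 5 rose and 5 fell with it, against 13.7% and 41.1% of all genes called. The copper chaperone Cox17 rose by 1.39 ± 0.28 (adjusted p = 0.0098) and Sco1 by 1.40 ± 0.37 (adjusted p = 0.0368), while Sco2 fell by 1.05 ± 0.24 (adjusted p = 0.0175).

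Among 20 regulators of mitochondrial biogenesis, Ppargc1b, a coactivator of respiratory genes, rose in Venus-high against Venus-low Tfh with the term (0.94 ± 0.13, adjusted p = 0.0054) and was the only gene of the list called there. Of all genes, 16.9% were called with the term. Against naive cells the related coactivator Pprc1 fell by 1.59 ± 0.30 without the term (adjusted p = 0.0083), and 1 of the 20 genes rose and 7 fell with it, against 20.2% of all genes called higher and 20.9% called lower. Of 17 measured genes of the tricarboxylic acid cycle and pyruvate entry, 1 fell between the Tfh groups with the term, Idh3a (-1.06 ± 0.21, adjusted p = 0.018), against 9.43% of all genes called lower. Against naive cells 1 of the 17 rose and 2 fell, against 41.1% called.

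Proteins of the mitochondrial ribosome, which translates the mitochondrially encoded subunits, lay lower in Venus-high than in Venus-low Tfh. Of 76 measured genes 69 lay below 0, with a median of -0.27. With the term 17 fell and 0 rose, against 9.43% of all genes called lower. Without the term 0 passed, against 1.31% of all genes called. Of 44 cytosolic ribosomal protein genes 37 also lay below 0, with a median of -0.09. With the term 5 of the 44 fell, against 9.43% of all genes called lower. Against naive cells 9 mitochondrial ribosome genes rose and 9 fell with the term, against 41.1% of all genes called.

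Proliferation markers also differed between the groups. All 11 measured markers lay lower in Venus-high than in Venus-low Tfh (median -1.47), and 8 fell with the term, against 9.43% of all genes called lower. Their summed level was 15.03 to 15.47 in Venus-high, 16.49 to 16.97 in Venus-low, 15.62 to 16.02 in PD1-intermediate, 13.72 to 14.47 in PD1-low and 13.84 to 13.93 in naive cells. Thus Venus-low Tfh had the highest marker level as well as the highest level of most chain genes. Between PD1-intermediate and PD1-low cells 8 of the 11 markers rose with the term (median 2.27), against 12.8% of all genes called. The member median there was 0.06, and 0 members were called. For Venus-high Tfh against naive cells 8 markers rose with the term (median 2.31), against 20.2% of all genes called higher. The member median there was 0.12, and 19 members rose and 7 fell. Between Venus-low Tfh and PD1-intermediate cells 5 markers rose with the term (median 1.06), against 6.41% of all genes called. The member median there was 0.15. The part of proliferation in the respiratory chain differences was not tested.

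Where a gene had several probe sets, the others mostly gave the same sign. For Venus-high against Venus-low Tfh 58 of 72 other probe sets of the members did, and against naive cells 51 of 72. Among members called with the term, 16 of 22 other probe sets agreed in sign against naive cells and 1 of 3 between the Tfh groups. Against naive cells those that disagreed belonged to Ndufb8, Ndufs4, Uqcr10, Uqcrq and Cox8a, all called as rises. Between the Tfh groups they belonged to Ndufab1 (0.06) and Atp5g2 (0.02), both called as falls. These probe sets were dim, with mean levels of 6.86 and 3.98. The probe set that agreed, of Ndufab1 with a mean of 11.03, gave -0.67.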

How the data were processed

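Gene expression was measured in 12 samples, each a pool of sorted cells on an Affymetrix mouse genome array. The authors deposited 1 log2 value for each probe set, computed with GCRMA (background adjustment, quantile normalization and a summary over probes) per the submitters' processing notes. The version and the arrays normalized together are not given in the sources used here. Of 45101 probe sets, 34958 had 1 gene symbol, and the 932 with several and 9211 with none were left out.

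The probe set with the highest mean stood for its gene, and 9886 genes reached log2 5 on at least 2 arrays. All 12 arrays entered 1 limma 3.58.1 fit (R 4.3.3) of 5 groups, because 3 groups held 2 arrays. The 5 comparisons used 2-sided moderated tests with Benjamini-Hochberg adjustment over all genes, at an adjusted p of 0.05. Array sets are 3 clusters of the arrays' quantiles, a number set by choice. The self-check on simulated data was run for the same fits. Tfh arrays of equal replicate number deviated together from their group means (correlations 0.914, 0.946 and 0.915), which is also the array set.

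Named members were the core subunits, isoform families, members past the threshold, and the extremes or smallest p per comparison. Members and lists were chosen with earlier results of these data known. Groups are pools, and p-values measure the spread between arrays of pools. Without the term this spread includes the shift between array sets. Between the Tfh groups the median SE of the members was 0.27 without the term and 0.09 with it. Both PD1-intermediate arrays lie in set 3, so their own spread holds no such shift. The number of arrays limits the precision. Alternatives changed the filter, floor, normalization, variance model, arrays, blocks, probe set and fold. Figures were drawn in matplotlib 3.10.9 (Python 3.11.15).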

Additional observations from a re-analysis of the deposited data

How the results depend on the processing

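Counts below are calls of limma. Between the Tfh groups, the 0 members called became 11 with array weights, 7 with the array set as a term, 5 with it as a random block and 1 on the 6 arrays alone with the replicate block. The 130 genes called became 413 with quantile normalization, 324 with arrays centred on their median, 2639 with array weights, 1671 with the array set term, 1810 with the random block, 262 with the replicate block, 4 on the 6 arrays alone and 1002 there with the replicate block. Leaving out 1 array gave 0 members and 33 to 150 genes, and 1 to 3 members with the array set term.

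For Venus-low Tfh against PD1-intermediate cells, members called were 0, then 41 with array weights (2 higher, 39 lower), 1 with the array set term, 1 with the random block and 12 with the replicate block. Genes called were 56, then 146 (quantile), 127 (centred), 20 (limma-trend), 6875 (array weights), 634 (term), 900 (random block), 2762 (replicate block), 2 (both groups alone), 85 (without displaced probe sets) and 5 to 40 with 1 array left out. Array weights did not converge fully.

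For PD1-intermediate against PD1-low cells, the 396 genes called became 637 (quantile), 1265 (term), 1418 (random block), 691 (replicate block), 95 (both groups alone) and 137 to 386 with 1 array left out. For PD1-low against naive cells, the 8 genes became 20 (no filter), 37 (quantile), 17 (centred), 56 (term), 104 (random block), 25 (replicate block), 0 (both groups alone), 1 (mean of all probe sets), 17 (without displaced probe sets) and 0 to 41 with 1 array left out. Members called were 0 in both.

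For Venus-high Tfh against naive cells, the 4 members called became 2 (filter at log2 4), 9 (quantile), 10 (array weights), 26 (term), 26 (random block), 8 (replicate block), 0 (both groups alone), 2 (mean of all probe sets), 1 (at least 1 log2 unit) and 0 to 1 with 1 array left out. The 1355 genes became 2352 (array weights), 4066 (term), 4059 (random block), 681 (both groups alone) and 817 to 1297 with 1 array left out.

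The member median minus that of all genes moved without a filter to -0.16, 0.28 and 0.25 for Venus-low against PD1-intermediate, PD1-intermediate against PD1-low and PD1-low against naive cells, from 0.22, 0.01 and -0.01. In the fit without the array set term, 2 directions turned between the Tfh groups. These were Atp5g2 without Venus-high replicate 1 (-1.46 to 0.31 with 1 array left out) and Ndufa8 without Venus-low replicate 3 (-0.87 to 0.036). Leaving out 1 array breaks its pair, and both genes were lower in Venus-high within each array set. For Atp5l against naive cells they turned with array weights (0.14), without Venus-high replicate 1 (0.52) and without naive replicate 2 (0.38), with a range of -0.62 to 0.52. Of all other single gene values, 435 kept direction and side of the threshold, 55 passed it only under the alternative and 35 lost it. The causes were not tested. Settings around the array set term were added after seeing the data.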
